A study of Mus musculus with 15 samples.

Results

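The Cyp2a and Cyp2b genes examined here were Cyp2a4, Cyp2a5, Cyp2a12, Cyp2a22, Cyp2b9, Cyp2b10 and Cyp2b13, chosen by name as 7 of the 37991 genes in the count table, 4 of the Cyp2a and 3 of the Cyp2b subfamily. RNA was sequenced from whole liver of female C57BL/6 mice on a chow diet in 3 groups of 5 animals, each library being 1 mouse. Young WT mice were 90 days old and old WT mice 600 days old, all with an intact S6K1 gene, and old KO mice, also aged 600 days, carried a deletion of S6K1 in every tissue. There was no young KO group, so genotype was compared at 600 days alone. Rps6kb1, the gene of S6K1, was at 15.2 to 20.8 CPM (read counts scaled to a common library size) in the 5 old KO libraries and at 33.3 to 45.4 CPM in the 10 WT libraries, with no overlap.

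Cytochromes P450 are heme enzymes of the endoplasmic reticulum that insert oxygen into steroids, drugs and dietary chemicals, with electrons passed to them by the reductase Por. Liver enzymes of the Cyp2a and Cyp2b subfamilies oxidise steroids, coumarin, nicotine and barbiturates, and several of them are set by the nuclear receptor CAR (gene Nr1i3), which senses foreign compounds, and by the sex-dependent pattern of growth hormone release. In mouse liver Cyp2a4, Cyp2b9 and Cyp2b13 are known as female-predominant genes, and Cyp2b10 is the classical gene induced by phenobarbital through CAR.

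All 7 genes lay in 1 cluster on chromosome 7. In mm9 coordinates, Cyp2b10 was at chr7:26682639-26711643, Cyp2b13 at chr7:26846514-26881215, Cyp2b9 at chr7:26958430-26995680, Cyp2a4 at chr7:27092209-27100107, Cyp2a5 at chr7:27620324-27628567, Cyp2a22 at chr7:27716650-27724405 and Cyp2a12 at chr7:27814109-27821826. All are protein-coding, and Cyp2a22 alone is on the minus strand. Within the cluster the genes form near-identical pairs, which decides how far their reads can be told apart. The longest transcripts of Cyp2a4 and Cyp2a5 were identical at 98.3% of aligned bases, those of Cyp2a12 and Cyp2a22 at 96.6%, and those of Cyp2b9 and Cyp2b13 at 91.8%. Of all 50-base windows along its exons, Cyp2a4 shared 36.5% with Cyp2a5, Cyp2a12 shared 27.9% with Cyp2a22, and Cyp2b9 shared 10.6% with Cyp2b13. Windows found nowhere else among transcripts or on chromosome 7 made up 52.8% of Cyp2a5, 61.8% of Cyp2a4 and 92.1% of Cyp2b10. Reads of single members are therefore uncertain where windows are shared, and the sums of Cyp2a4 with Cyp2a5 and of the 3 Cyp2b genes are given beside the single genes. Cyp2a12 and Cyp2a22 were not summed, so the values of each stay uncertain to that extent.

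The likeness extended to the promoters, and those of the most alike pairs are shown, since the members of a pair are compared with each other throughout. The 250 bases before the start site (RefSeq, GRCm38.p6, all on the plus strand, 5′ to 3′) are at chr7:26173159-26173408 for Cyp2b9, chr7:26061245-26061494 for Cyp2b13, chr7:26306942-26307191 for Cyp2a4 and chr7:26835089-26835338 for Cyp2a5. Capitals mark bases that differ within a pair.
Cyp2b9: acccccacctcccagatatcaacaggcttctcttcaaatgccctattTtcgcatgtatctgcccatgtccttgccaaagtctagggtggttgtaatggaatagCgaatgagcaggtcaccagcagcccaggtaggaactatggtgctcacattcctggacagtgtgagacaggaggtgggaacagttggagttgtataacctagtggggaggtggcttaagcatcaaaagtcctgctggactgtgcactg
Cyp2b13: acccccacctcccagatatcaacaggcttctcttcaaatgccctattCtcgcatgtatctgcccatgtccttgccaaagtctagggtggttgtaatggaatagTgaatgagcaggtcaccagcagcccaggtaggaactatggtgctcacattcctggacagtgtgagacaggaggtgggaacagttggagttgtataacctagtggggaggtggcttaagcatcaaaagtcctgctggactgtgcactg
Cyp2a4: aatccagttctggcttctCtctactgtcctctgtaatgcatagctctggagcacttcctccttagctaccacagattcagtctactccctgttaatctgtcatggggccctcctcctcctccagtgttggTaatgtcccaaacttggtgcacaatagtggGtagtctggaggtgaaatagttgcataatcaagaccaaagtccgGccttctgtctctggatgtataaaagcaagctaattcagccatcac
Cyp2a5: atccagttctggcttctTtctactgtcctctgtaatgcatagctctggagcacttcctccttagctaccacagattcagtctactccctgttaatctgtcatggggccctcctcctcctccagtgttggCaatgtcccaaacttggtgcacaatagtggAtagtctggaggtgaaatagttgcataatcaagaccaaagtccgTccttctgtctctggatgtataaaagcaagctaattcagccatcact

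The Cyp2b9 and Cyp2b13 stretches differed at 2 of 250 aligned bases, and those of Cyp2a4 and Cyp2a5 at 4 of 249. Cyp2b10 was identical to Cyp2b9 at 75.8% of 240 aligned promoter bases, and Cyp2a12 to Cyp2a22 at 90.0% of 239. A total of 6 motifs were searched on both strands in windows of 300 bases, from 250 before to 50 after the start. The core AGGTCA, bound by nuclear receptors, began 138 bases before the start in both Cyp2b9 and Cyp2b13, and within the first 50 transcribed bases of Cyp2a4 and Cyp2a5, where it lay on the minus strand. This core is also in 16.3% of the 32851 mouse promoters of that length. The TATA motif TATAAA was in the 4 Cyp2a promoters, in the Cyp2b promoters not at all, and in 13.6% of all promoters. None of the 7 windows held the STAT5 motif TTCNNNGAA (8.30% of all promoters), the PAR bZIP motif TTATGTAA (0.938%), the C/EBP motif TTGCGCAA (0.183%) or the HNF1 motif (0.00913%). A match is only a run of letters, and says nothing of binding.

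In all 3 groups Cyp2a12 and Cyp2b9 were the most abundant of the 7 transcripts per length and Cyp2b10 the least. In young WT liver Cyp2a12 stood at 326 ± 44.0 CPM per kb of exon (SD, n = 5) and Cyp2b9 at 323 ± 57.4, which did not differ beyond their spread. Cyp2a4 (117 ± 47.1), Cyp2b13 (96.7 ± 26.4), Cyp2a5 (74.7 ± 24.4), Cyp2a22 (48.3 ± 29.9) and Cyp2b10 (32.6 ± 27.0 CPM per kb) followed, each overlapping the next. In old WT liver Cyp2a5 (152 ± 31.6) and Cyp2a22 (115 ± 51.6) stood above Cyp2b13 (69.0 ± 45.3), below Cyp2a12 (376 ± 60.9), Cyp2b9 (370 ± 108) and Cyp2a4 (226 ± 102), with Cyp2b10 again last (16.6 ± 8.50 CPM per kb). Old KO liver kept that order except that Cyp2a5 (208 ± 39.6) stood above Cyp2a4 (192 ± 70.4 CPM per kb), by less than their spread. The 7 genes together took 1859 ± 245 CPM in young WT, 2438 ± 365 in old WT and 2707 ± 298 CPM in old KO liver. In bulk tissue, fewer cells expressing a gene and less RNA per cell cannot be told apart.

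**Figure D1:**
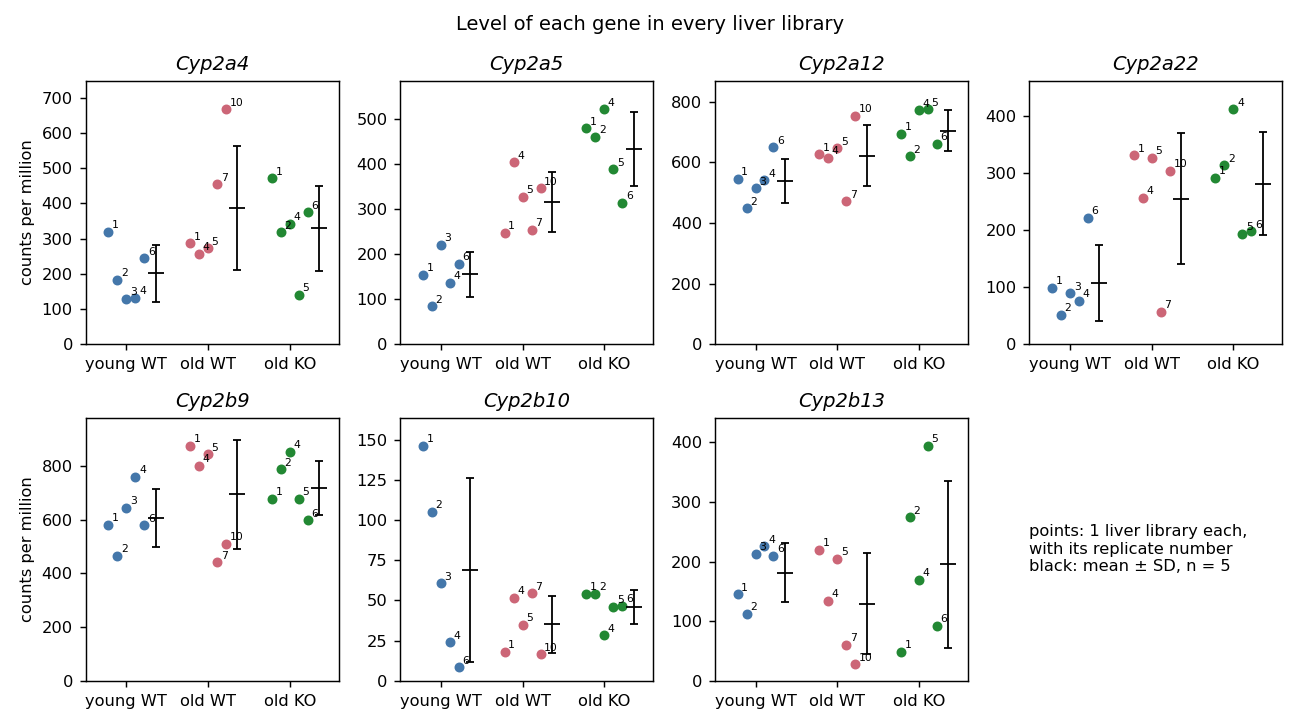
Level of each gene in CPM (vertical axes, each from 0) in the 5 libraries of young WT, old WT and old KO liver; each point is 1 mouse with its replicate number, and black marks show mean ± SD. Cyp2a5 is the gene whose 5 old WT points and 5 old KO points all lie above its 5 young WT points. How many of all genes tested separate in this way was not counted.

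With age in WT mice, 2 of the 4 Cyp2a genes rose and no Cyp2b gene passed the test, a difference between the subfamilies that was not itself tested. Of the 7 genes 2, Cyp2a5 and Cyp2a22, passed the edgeR test at an adjusted p under 0.05, both higher in old WT, while over all genes tested 9.92% were called higher and 8.91% lower. The background is high, so 2 of 7 is no result about the genes as a group, and they are described singly.

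Cyp2a5, a coumarin hydroxylase that also oxidises nicotine, was at 153, 84.3, 221, 137 and 179 CPM in the young WT libraries 1, 2, 3, 4 and 6. In old WT libraries 1, 4, 5, 7 and 10 it was at 248, 403, 327, 253 and 345 CPM. In old KO libraries 1, 2, 4, 5 and 6 it was at 479, 460, 521, 388 and 313 CPM. The lowest old WT and the lowest old KO library both lay above the highest young WT library. How many of all genes tested separate in this way was not counted, so the lack of overlap is a description only. The rise with age was 1.03 ± 0.214 on the log2 scale (SE, edgeR adjusted p = 0.00457), from 155 ± 50.6 to 315 ± 65.6 CPM (SD, n = 5). It stayed past the threshold in each of 23 alternatives run, with adjusted p between 6.86e-05 and 0.0479.

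Cyp2a4, a testosterone hydroxylase encoded by a transcript nearly identical to that of Cyp2a5, was at 319, 183, 129, 131 and 244 CPM in the young WT libraries, in the same order. It was at 286, 257, 272, 454 and 667 CPM in old WT and at 472, 317, 342, 140 and 374 CPM in old KO libraries. The groups overlapped. Of the old WT libraries only 7 and 10 lay above every young WT library, and of the old KO libraries 3 did, namely 1, 4 and 6. The log2 difference with age was 0.95 ± 0.335 and missed the threshold (adjusted p = 0.0590). It passed on leaving out young WT 1 (1.17, adjusted p = 0.0368) or old KO 5 (0.96, adjusted p = 0.0342), and the range over 23 alternatives was 0.0342 to 0.248. Without old WT 10 the difference was 0.66 (adjusted p = 0.165).

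Summing Cyp2a4 and Cyp2a5 undoes any split of shared reads between the pair, but does not bring back reads lost in mapping or counting. The sum lay between 267 and 472 CPM in young WT, between 534 and 1012 in old WT, and between 527 and 950 CPM in old KO libraries, and neither old group overlapped with young WT. Here too, the share of all genes without overlap was not counted. The rise with age was 0.98 ± 0.203 on the log2 scale (adjusted p = 0.00432), or 1.97-fold. Cyp2a4 made up 55.9% ± 13.3 of the sum in young WT, 53.6% ± 11.7 in old WT and 42.2% ± 10.7 in old KO liver (SD, n = 5), and neither the age difference of -2.28 percentage points (exact permutation p = 0.786, adjusted over 12 shares 0.818) nor that of genotype (-11.4 points, p = 0.159, adjusted 0.476) passed. The share ranged from 26.5% in old KO 5 to 68.4% in young WT 2.

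Cyp2a22 was at 99.4, 51.0, 89.2, 75.9 and 222 CPM in the young WT libraries. In old WT libraries it was at 331, 257, 327, 56.5 and 304 CPM, and in old KO libraries at 292, 314, 412, 193 and 198 CPM. Every old library except old WT 7 lay above every young library except young WT 6. The rise with age was 1.25 ± 0.422 on the log2 scale (adjusted p = 0.0490), close to the threshold. The difference was larger without old WT 7 (1.51, adjusted p = 0.00588) or without young WT 6 (1.70, adjusted p = 0.00763), but the call was lost on leaving out any 1 of the other 13 libraries (adjusted p between 0.0523 and 0.110) and in a fit of the 10 WT libraries alone (0.0826). The size stayed between 1.07 and 1.75 over all 24 alternatives.

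Old WT 7 stood apart in other liver genes too. Of the 15 libraries it had the lowest summed level of 14 pericentral hepatocyte markers (6350 CPM, the other 14 libraries 9160 to 14664) and the highest of 12 periportal markers (13607 CPM, the others 5826 to 13288). Its sum of 20 xenobiotic receptors and their partners was also the lowest (2116 CPM, the others 2295 to 3133), while young WT 6 had the highest (3133 CPM, the others 2116 to 2745). The hepatocyte marker sum was lowest in young WT 6 (89690 CPM, the others 99807 to 155129) and was 149457 CPM in old WT 7. The part of these differences in the levels of Cyp2a22 was not tested.

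Cyp2a12, which in mouse liver hydroxylates bile acids, had the smallest spread between mice of the 7 genes. It was at 546, 448, 514, 541 and 650 CPM in young WT, 626, 615, 646, 471 and 753 CPM in old WT and 695, 620, 772, 775 and 662 CPM in old KO libraries. The old WT range spanned nearly all of the young WT range. The log2 difference with age was 0.21 ± 0.122 (95% interval -0.05 to 0.46, adjusted p = 0.254). The biological coefficient of variation, the spread between mice beyond counting, was 0.150, lower than that of Cyp2a22 (0.451), with which Cyp2a12 shares promoter and transcript sequence.

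Cyp2b9 was at 581, 465, 643, 760 and 578 CPM in young WT libraries, 874, 800, 843, 442 and 511 CPM in old WT and 677, 787, 853, 676 and 597 CPM in old KO libraries. Old WT fell into 3 libraries above all young ones and 2 low ones, old WT 7 and old WT 10. The log2 difference with age was 0.20 ± 0.184 (95% interval -0.19 to 0.59, adjusted p = 0.482).

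Cyp2b13 was at 145, 113, 213, 226 and 210 CPM in young WT, 220, 134, 204, 60.6 and 28.0 CPM in old WT and 48.8, 275, 169, 394 and 92.5 CPM in old KO libraries. The same 2 old WT libraries that were low in Cyp2b9 were the lowest here. The highest library was 8.07 times the lowest in old KO, 7.85 times in old WT and 2.01 times in young WT liver. The log2 difference with age was -0.49 ± 0.528 (95% interval -1.61 to 0.63, adjusted p = 0.552), an interval that allows a fall to less than 0.5 of the young level as well as no change. It was -0.23 without old WT 10, -0.76 without old WT 1 and -0.82 with limma voom, with no call in any of these.

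Cyp2b10 had the widest spread, and most of it was among young mice. It was at 146, 105, 60.8, 24.0 and 8.49 CPM in young WT, 18.0, 51.7, 34.9, 54.4 and 16.5 CPM in old WT and 54.2, 54.2, 28.4, 46.2 and 46.9 CPM in old KO libraries. The young WT range enclosed both old ranges, and its highest library was 17.2 times its lowest. The coefficient of variation over the fit was 0.576, above that of 98.9% of the genes tested, with 0.564 for Cyp2b13. The log2 difference with age was -0.98 ± 0.541 (95% interval -2.12 to 0.17, adjusted p = 0.222). Without young WT 1 it was -0.50 and without young WT 6 it was -1.25 (adjusted p = 0.569 and 0.0504).

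**Figure D2:**
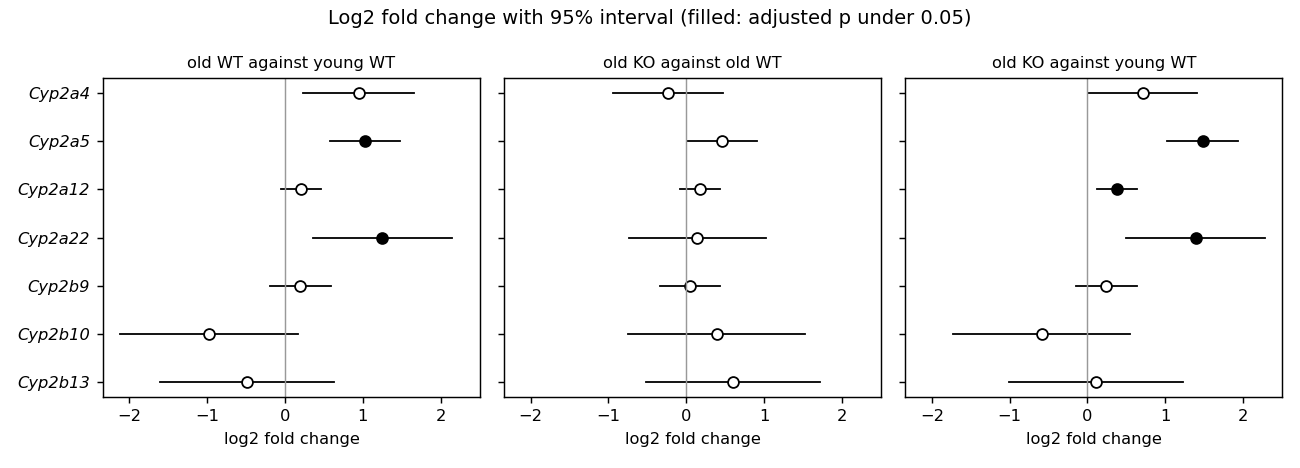
Log2 fold change of each gene (horizontal axes) with its 95% interval from the edgeR fit of all 15 libraries, in 3 comparisons; filled points passed an adjusted p under 0.05. With age, Cyp2a5 (1.03) and Cyp2a22 (1.25) are filled, in old KO against old WT no gene is, and in old KO against young WT Cyp2a5 (1.48), Cyp2a12 (0.38) and Cyp2a22 (1.39) are.

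The 3 Cyp2b genes summed lay between 683 and 1010 CPM in young WT, between 555 and 1111 in old WT, and between 736 and 1116 CPM in old KO libraries, and the log2 difference with age was 0.00 ± 0.203 (95% interval -0.43 to 0.43, adjusted p = 0.993). The makeup of that sum was compared as the share each gene took. Cyp2b9 took 66.6, 68.1, 70.2, 75.2 and 72.6% of the summed counts in young WT libraries, 78.6, 81.1, 77.9, 79.3 and 92.0% in old WT and 86.8, 70.5, 81.2, 60.6 and 81.1% in old KO libraries. Young and old WT did not overlap, with means of 70.5% ± 3.45 and 81.8% ± 5.82 (SD, n = 5), and the difference of 11.2 percentage points had an exact permutation p of 0.00794, the smallest that 5 against 5 allows, which after adjustment over 12 shares was 0.0952 and missed the threshold. The share of Cyp2b13 was 21.0% ± 4.32 in young and 13.6% ± 6.05 in old WT liver (exact permutation p = 0.0556, adjusted 0.333), and that of Cyp2b10 8.44% ± 7.27 and 4.57% ± 3.18 (p = 0.310, adjusted 0.529). In old KO liver the Cyp2b9 share covered 60.6 to 86.8%, overlapping both WT groups.

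**Figure D3:**
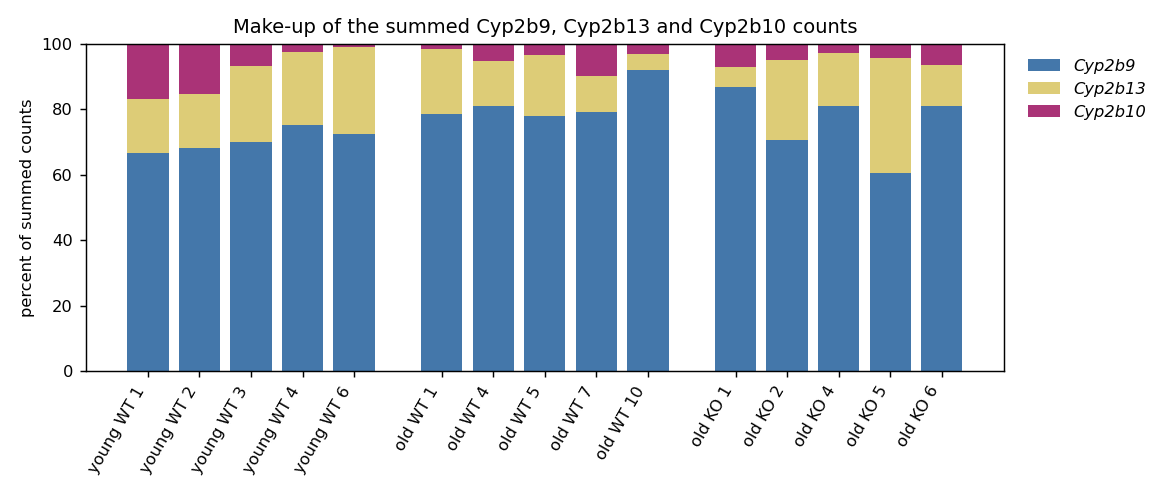
Percent of the summed Cyp2b9, Cyp2b13 and Cyp2b10 counts (vertical axis) taken by each gene in every library, 1 bar per mouse. The Cyp2b9 part lies between 66.6 and 75.2% in young WT, between 77.9 and 92.0% in old WT, and between 60.6 and 86.8% in old KO libraries.

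Loss of S6K1 at 600 days left all 7 genes without a call, where 0.112% of all genes tested were called higher and 0.421% lower. The nearest was Cyp2a5, at 315 ± 65.6 CPM in old WT and 432 ± 82.1 in old KO liver (SD, n = 5), a log2 difference of 0.45 ± 0.212 with a 95% interval of 0.0056 to 0.90, an unadjusted p of 0.0475 and an edgeR adjusted p of 0.422. Of the old KO libraries 3 lay above every old WT library. The log2 differences of the other 6 were -0.24 for Cyp2a4, 0.18 for Cyp2a12, 0.14 for Cyp2a22, 0.05 for Cyp2b9, 0.39 for Cyp2b10 and 0.60 for Cyp2b13, with adjusted p of 0.615 or more. At an unadjusted p under 0.05 only Cyp2a5 of the 7 passed in edgeR, and 1661 of all 14258 genes tested did. A pass by 1 of 7 is near that share, and is no result about the genes. DESeq2 and limma voom also called 0 of the 7 after adjustment. The precision differed widely. The 95% interval ended at 0.44 for Cyp2a12 and Cyp2b9. It ran from -0.74 to 1.02 for Cyp2a22, from -0.75 to 1.53 for Cyp2b10 and from -0.52 to 1.72 for Cyp2b13. For each of these last genes it so contained a 2-fold increase. Leaving out old KO 5 brought the Cyp2b13 difference to 0.17, leaving out old WT 10 to 0.34 and leaving out old WT 1 to 0.87, none of them called. Cyp2a4 and Cyp2a5 summed differed by 0.12 ± 0.201 (adjusted p = 0.888), and the Cyp2b sum by 0.16 ± 0.203 (adjusted p = 0.825).

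Old KO against young WT liver, which differ in age and genotype together, gave 3 calls, all higher and all Cyp2a genes, where 12.0% of genes were called higher and 11.3% lower. Cyp2a5 was higher by 1.48 ± 0.216 (adjusted p = 0.000346), or 2.79-fold, and Cyp2a22 by 1.39 ± 0.423 (0.0267). Cyp2a12 was higher by 0.38 ± 0.122 (adjusted p = 0.0322), a call lost on leaving out young WT 1, 2, 3 or 4 or old KO 1, 4 or 5 (adjusted p between 0.0508 and 0.0830) or with no filter on low counts (0.0512). The Cyp2a22 call was lost without young WT 1, 2, 3 or 4 or old KO 4 (adjusted p between 0.0572 and 0.0700). For Cyp2a4 the difference was 0.71 ± 0.334 (adjusted p = 0.134), for Cyp2b9 0.25, for Cyp2b10 -0.58 and for Cyp2b13 0.11 (adjusted p of 0.353 or more). The Cyp2b10 value was -0.11 without young WT 1 and -0.027 with limma voom, again with no call. This comparison shares its old KO libraries with that of genotype and its young WT libraries with that of age, so it is no independent result.

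Across mice of 1 group, Cyp2a4 and Cyp2b13 moved in opposite directions. Their levels were compared as log2 CPM minus the group mean over the 15 libraries, with permutation within groups, and 28 pairs among the 7 genes and Nr1i3 were examined. For Cyp2a4 and Cyp2b13 Pearson's r was -0.79 (permutation p = 0.00056, adjusted 0.0157) and Spearman's rho -0.77 (p = 0.00059, adjusted 0.0165), and r was -0.66 without old KO 5 and old WT 10, the libraries farthest from the median of Cyp2a4. The r of -0.79 pools the 3 groups and was not computed in each group alone. Young WT 2 and 6 and old KO 2 and 4 deviated in the same direction in both genes, the other libraries in opposite directions. No other pair passed the adjustment. Cyp2a12 and Cyp2a22 had an r of 0.79 (adjusted p = 0.0911) that fell to 0.66 without old WT 7 and old WT 10, and Cyp2b9 and Cyp2b13 had 0.69 (adjusted p = 0.104). Cyp2a4 and Cyp2a5, the pair with the most shared sequence, had an r of 0.01 (adjusted p = 0.977). Nr1i3 had an r of 0.66 with Cyp2a22 (adjusted p = 0.236), which fell to 0.37 without old WT 7 and old KO 1, and of -0.29 with Cyp2b10 (adjusted p = 0.414).

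**Figure D4:**
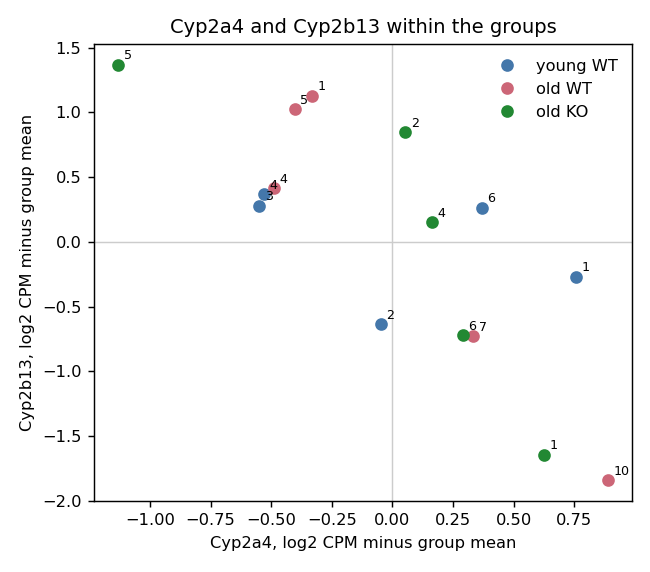
Cyp2b13 (vertical axis) against Cyp2a4 (horizontal axis), both as log2 CPM minus the mean of the group, in 15 livers coloured by group and numbered by replicate. Points run from old KO 5 at the upper left to old WT 10 at the lower right, with r = -0.79.

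The genes most alike each member over the 15 libraries, by Pearson's r of log2 CPM among 12118 genes, were chosen by rank alone. For Cyp2a5 they were Hnmt (0.95), Sucnr1 (0.94) and Ildr2 (0.93), and for Cyp2a22 Dhrs7, St3gal6 and Glod5 (each 0.93). For Cyp2b9 they were Atg7 (0.94), Clec4g (0.89) and Wdpcp (0.86). For Cyp2b13 they were Il1rap (0.88), Cyp2c50 (0.85) and Gm16639 (0.82), and Il1rap and Cyp2c50 also led after the group means were removed (0.89 and 0.88). For Cyp2a12 they were Mmaa and Pgrmc1 (each 0.90) and Fkbp4 (0.89), for Cyp2b10 Fam109a (0.90), Mpv17l2 and Mms19 (each 0.88), and for Cyp2a4 Ssx2ip (0.83), 5730508B09Rik (0.82) and Fam84b (0.81). Each r is a description over libraries that share group differences.

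On the same stretch of chromosome 7, 41 other genes lay among the 7 or within 250 kb of them. Of these 21 were tested, and with age, where 9.92% of all genes were called higher and 8.91% lower, 1 was called higher, Adck4 (0.43, adjusted p = 0.0334), and 1 lower, Cyp2f2 (-0.75, adjusted p = 0.0318), a P450 of periportal hepatocytes that lies beside Cyp2a12. None was called by genotype, where Cyp2f2 differed by 0.98 (adjusted p = 0.0679). In old KO against young WT liver 2 were called higher and 0 lower. Cyp2g1, which lies next to Cyp2a5, was higher by 1.97 (adjusted p = 0.00399), at 5.09 CPM against 1.32, and BC024978 by 0.45 (adjusted p = 0.0200), at 8.46 CPM against 6.20. The median log2 difference of the tested flanking genes was 0.06 with age and 0.04 with genotype.

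The genes of CAR and PXR were not called in either comparison. Nr1i3 was at 297 ± 22.2, 284 ± 62.3 and 309 ± 42.7 CPM in young WT, old WT and old KO liver (SD, n = 5; age -0.06, adjusted p = 0.788; genotype 0.12, adjusted p = 0.815). Nr1i2, the receptor PXR, differed by -0.14 with age (adjusted p = 0.472), and the hepatocyte factor Hnf4a by -0.09 (adjusted p = 0.658). Over all genes tested 9.92% were called higher and 8.91% lower with age, and 0.112% higher and 0.421% lower by genotype. Of 20 xenobiotic receptors and partners 4 were called higher and 1 lower with age, among them Rxrg (0.54) and Nr3c1, the glucocorticoid receptor (0.32), and the list median was -0.07 against 0.01 over all genes tested. Of 34 tested other target genes of CAR and PXR 11 were higher and 2 lower with age (median 0.21), including the glutathione transferases Gstm3 (1.86) and Gsta2 (1.64) and the exporter gene Abcc4 (1.81). Among those that fell with age was Cyp2c54, at 192 ± 72.5 CPM in young WT and 18.7 ± 11.8 in old WT liver (-3.35, adjusted p = 0.00162), and it alone of that list was called by genotype, higher in old KO (3.36, adjusted p = 0.0222, 192 ± 183 CPM).

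Genes of electron and heme supply changed with age in both directions. Por, the reductase that supplies electrons, fell from 594 ± 178 CPM in young WT to 324 ± 75.0 in old WT liver (log2 -0.88 ± 0.206, adjusted p = 0.00890), and Alas1, the first enzyme of heme synthesis, from 536 ± 217 to 197 ± 56.4 CPM (-1.45 ± 0.272, adjusted p = 0.00266). Cyb5b, a cytochrome b5 of the mitochondrial outer membrane, rose by 0.75 (adjusted p = 0.00435). Of the 17 genes of that list 4 were higher and 3 lower with age (median 0.15), against 9.92% and 8.91% of all genes tested. By genotype, where 0.421% of all genes were called lower, 1 was called, Hmox1, which degrades heme and was lower in old KO (-0.85, adjusted p = 0.0485).

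Other genes with sex-dependent levels changed widely with age, where 9.92% of all genes tested were called higher and 8.91% lower. Of 25 tested female-predominant liver genes, the 7 genes themselves not included, 14 were higher and 2 lower in old WT (median 1.17), among them A1bg (97.7 ± 104 to 2378 ± 1533 CPM, log2 4.61, adjusted p = 0.00237), Hao2 (4.43) and Cyp3a41b (4.87), while Sult3a1 fell (-4.80, adjusted p = 0.000108). The summed level of the female-predominant list was 10964 CPM in old WT 10 and 4406 to 6018 CPM in the other old WT libraries. Of 19 male-predominant genes none was higher and 7 were lower (median -0.81), led by Cyp2d9 (-3.66) and Susd4 (-3.08). Of 15 genes of the growth hormone and STAT5 axis 6 were higher and 1 lower (median 0.28), including the receptor genes Ghr (0.81), Prlr (0.88) and Esr1 (0.70). Beside these, the female-predominant members Cyp2a4 (0.95), Cyp2b9 (0.20) and Cyp2b13 (-0.49) were not called. By genotype 2 female-predominant genes, no male-predominant gene and no gene of the growth hormone axis were called. Over all genes tested 0.112% were called higher and 0.421% lower by genotype.
Of 20 liver transcription factors 2 were higher and 2 lower with age (median -0.20), near the 9.92% and 8.91% of all genes tested. Among them were the clock genes Nfil3 (1.08) and Nr1d1 (-1.46), and none of the 20 was called by genotype.

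Some markers of liver cell types changed with age or genotype. Over all genes tested 9.92% were called higher and 8.91% lower with age, and 0.112% higher and 0.421% lower by genotype. A count of 1 in a list of about 10 genes is near the shares with age. Hepatocyte markers were detected in every library, and with age 1 of 10 was higher and 2 lower, Cps1 by -1.27 (adjusted p = 0.0197). Of 14 pericentral markers 1 was called higher and 4 lower with age (median -0.29), and 6 of the 14 had a log2 difference above 0, called or not. The sum of the 14 was 12290 to 14664 CPM in young WT and 6350 to 11908 in old WT liver, without overlap. How many of all genes tested separate in this way was not counted, and a sum gives most weight to the most abundant genes. Of 12 periportal markers 2 were lower (median -0.31). With age, 4 of 8 B and plasma cell markers, 3 of 10 T cell markers and 2 of 15 macrophage markers were higher. By genotype, 9 of 15 macrophage and Kupffer cell markers were lower in old KO (median -1.04, summed level 193 to 300 CPM against 339 to 752 in old WT), including Clec4f and Cd5l, and no gene of the other lists of cell markers was called. Of endothelial markers 3 of 10 were lower with age, of stellate cell markers 1 was higher and 1 lower of 10, of bile duct markers 1 of 7 was higher, and of adipocyte and mesothelial markers none of 3. The part of cell makeup in the levels of the Cyp2a and Cyp2b genes was not tested.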

How the data were processed

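The authors prepared stranded poly(A) libraries from whole liver, sequenced them as single-end reads of 50 bases, mapped them to mm9 with TopHat2 2.0.11 (version per the submitters' processing notes) and used HTSeq to assign reads to genes. What they deposited are raw counts, neither normalized nor pooled. The annotation, strand setting and treatment of multiply mapped reads are not given in the sources used here, so reads of near-identical genes may be lost or split. Groups came from the sample titles.

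Counts were scaled by TMM and tested with edgeR 4.0.16 (quasi-likelihood, R 4.3.3) in 1 fit of all 15 libraries with group alone. Of 37991 genes 14258 passed filterByExpr, all 7 members among them, and p-values were adjusted by Benjamini-Hochberg over all 14258 with a threshold of 0.05. CPM divide counts by the effective library size after TMM. A prior count of 2 was added for log2 CPM. SE are those of fitted log2 fold changes. Total counts were 21801754 to 38065359 per library, and members had 197 to 28271 counts, so counting error is small beside the spread between mice. Shares were compared by exact 2-sided permutation (252 assignments), correlations with 100000 permutations within groups. Positions and 50-base windows came from GENCODE M1 on NCBIM37, the build of mm9, and promoters from RefSeq. The fit was tested on simulated data. Alternatives were other scalings and filters, DESeq2 1.42.0, limma 3.58.1 voom, the 10 libraries of a comparison alone, a replicate block, each library left out, and sums of Cyp2a4 with Cyp2a5 and of the 3 Cyp2b genes.

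The 7 members and all lists (269 entries in 17 lists, matched by symbol) were chosen with earlier results of these data known. Genes named were the 7 members, Nr1i3, Nr1i2, Por, Hnf4a and Rps6kb1, up to 4 per list with the largest called change at 1 CPM or more, the 3 most alike each member, and called flanking genes. Some genes that fall under this rule are not reported here.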

Additional observations from a re-analysis of the deposited data

Results flagged for a closer look

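Of 42 groups of 5 libraries examined for a single value far from the others, 4 were marked (gap over range above Dixon's 95% critical value), and chance marks about 1 in 20 groups. Cyp2a22 was at 222 CPM in young WT 6, above 51.0 to 99.4 CPM in the other young WT libraries. Cyp2a22 was at 56.5 CPM in old WT 7, below 257 to 331 CPM in the other old WT libraries. The 7 genes summed were at 1792 CPM in old WT 7, below 2517 to 2655 CPM in the other old WT libraries. The share of Cyp2b9 in the Cyp2b counts was 92.0% in old WT 10, above 77.9 to 81.1% in the other old WT libraries. These values share libraries and genes, so they are not independent.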

How the results depend on the processing

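Of the calls, that of Cyp2a5 with age and in old KO against young WT held in all 23 alternatives. With age, 2 members were called, but 1 with DESeq2 size factors, limma voom, the 10 libraries alone or the replicate block, and between 1 and 2 when each library was left out. In old KO against young WT the count was between 1 and 3 with a library left out, 1 without young WT 1, 2, 3 or 4 or without old KO 4. By genotype it was 0 throughout. Replicate numbers were shared by libraries of different groups, but same-numbered libraries did not deviate together (r between -0.154 and 0.077 over 9 pairs). The labels do not say whether equal numbers pair mice, and these r cannot exclude it. With the replicate block the age difference of summed Cyp2a4 and Cyp2a5 was 0.84 and missed the threshold (adjusted p = 0.0872), and the genotype differences changed sign for Cyp2a4 (0.055), Cyp2a22 (-0.16), Cyp2b9 (-0.16), Cyp2b13 (-0.15) and the Cyp2b sum (-0.072), as did Cyp2b13 in old KO against young WT (-0.25, and -0.21 by voom). The numbers of young WT 3, old WT 7 and old WT 10 occur in no other library. The block fit therefore takes no group difference from these libraries. None of these sign changes concerned a call, and their cause was not tested. The Cyp2b sum with age, at 0.00, was -0.00237 with DESeq2 size factors, -0.00238 with DESeq2, -0.057 with voom and -0.00463 in the 10 libraries alone.

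With single libraries left out, the genotype difference was between -0.40 and 0.052 for Cyp2a4, -0.12 and 0.25 for Cyp2a22 and -0.080 and 0.14 for Cyp2b9, and Cyp2b13 in old KO against young WT lay between -0.31 and 0.36. The Cyp2b sum with age lay between -0.11 and 0.13, the age difference in the Cyp2a4 share between -7.03 and 1.41 points, the genotype difference in the Cyp2b10 share between -0.301 and 1.74 points, and the Cyp2b13 share in old KO against young WT between -6.13 and 1.13 points. Ranked by level per unique window in place of exon length, young WT Cyp2a5 came 4 and Cyp2b13 5, the reverse of their order by exon length. With 5 mice a group and a wide spread between them, the intervals of Cyp2b10, Cyp2b13 and Cyp2a22 are wide despite their depth.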
